A study of Mus musculus with 4 samples.

Results

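The cells described here are homeostatic microglia, defined as all cells that the deposited annotation places in cluster 0 or cluster 3 at its coarser resolution, from mice given the isotype antibody. They numbered 20015 of 74758 cells in the series, with 11808 in cluster 0 and 8207 in cluster 3, and they came from 8 of the 20 mice. The comparison asks how microglia that still carry a resting profile differed with the AppSAA genotype when no active antibody was given. It set 4 AppSAA;TfRmu/hu mice (10540 cells) against 4 WT;TfRmu/hu mice (9475 cells). Cluster 0 held 57.2 to 63.5% of the cells of a WT mouse and 28.1 to 32.5% of those of an AppSAA mouse. For cluster 3 the shares were 32.7 to 38.9% and 21.8 to 29.4%. The AppSAA cells compared were thus a smaller part of each mouse's cells. All 8 mice carried the human TfR knock-in on the C57BL/6J background. The AppSAA mice were homozygous both for it and for AppSAA. AppSAA is a knock-in of the Swedish, Arctic and Austrian mutations with a humanized amyloid-beta sequence in the mouse's own App gene. Each mouse received 10 mg per kg of ATV:ISO intravenously and was sampled after 24 hours; the deposited label of this antibody is ATV-DNP02, which was read as ATV:ISO although no deposited text says so. The AppSAA mice were recorded as male, as were 3 of the WT mice, while the WT mouse of pool 4 was recorded as female. An age of 8 months is listed for male AppSAA;TfRmu/hu mice, and whether it covers these WT mice is unclear. Cortex, or cortex with hippocampus according to another text, was sorted for live CD11b+ cells. Mice were tagged and captured in 4 pools, with a single mouse per group in every pool, so the 8 mice form 4 pairs.

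Homeostatic microglia survey the brain with motile processes and express P2ry12, Tmem119, Cx3cr1 and other genes that depend on CSF1 receptor and TGF-beta signaling. Near amyloid plaques, microglia lose part of that profile and take up the disease-associated (DAM) profile. It includes the lipid carrier Apoe, the cystatin Cst7, the lipase Lpl and lysosomal genes, and its full form requires the lipid receptor Trem2. Interferon and antigen presentation genes are separate programs that can rise in aged or diseased brain.

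The UMIs of each mouse were summed within each cluster, giving 8 sums for each cluster. A cluster 0 sum held 1070 to 1930 cells and 7.69e+06 to 1.59e+07 UMIs, and a cluster 3 sum held 799 to 1448 cells and 7.42e+06 to 1.48e+07 UMIs. Levels below are CPM, the UMIs of a gene per 1000000 UMIs in such a sum. Marker levels describe these clusters but do not check the label independently, because the clusters were made from the expression of the same cells. P2ry12, the ADP receptor of resting microglia, was at 3215, 3325, 3465 and 3221 CPM in cluster 0 of WT mice and at 2847, 2782, 3102 and 3270 CPM in AppSAA mice, in order of pool. Tmem119 was at 1384 to 1618 CPM in WT and 1219 to 1510 CPM in AppSAA mice, and Cx3cr1 at 4447 to 5898 CPM and 4197 to 5497 CPM. For comparison, P2ry12 averaged 839 CPM and Tmem119 315 CPM in deposited cluster 1 of the same AppSAA mice, where Apoe averaged 15487 CPM. Cluster 3 differed from cluster 0 in early-response genes: Fos averaged 4165 ± 580 CPM (SD, n = 4) in cluster 3 of WT mice and 323 ± 33.4 CPM in cluster 0. The summed level of 8 monocyte markers lay between 9.19 and 14.3 CPM in WT and between 11.3 and 19.5 CPM in AppSAA cluster 0 sums, and that of 10 border macrophage markers between 184 and 253 CPM and between 163 and 216 CPM. The median number of UMIs per cell in cluster 0 averaged 7049 ± 629 in WT and 7093 ± 538 in AppSAA mice (SD, n = 4; difference 43.5, p = 0.886, two-sided exact permutation test, whose smallest possible p is 0.0286), and within pools the difference ran from -143 to 120. In cluster 3 the averages were 8508 ± 687 and 8714 ± 641 (unpaired exact permutation p = 0.514), and AppSAA was higher in 4 of 4 pools, by 62.5 to 413 UMIs. Xist was at 1555 CPM in cluster 0 of the female WT mouse, at 6.60 CPM in the male AppSAA mouse of the same pool (0.425% of the female level) and at no more than 0.515 CPM in the males of the other pools. In the other direction, the Y-linked gene Ddx3y was at 5.66 CPM in the female mouse, 6.68% of the mean of the males. The source of these reads was not tested.

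Many genes differed between AppSAA and WT mice in homeostatic cells, nearly all by less than 2-fold. In cluster 0, 642 of 11578 genes tested (5.54%) passed an adjusted p of 0.05 in edgeR's quasi-likelihood test with the pool as a block, 415 higher (3.58%) and 227 lower (1.96%). The median size of a called change was 0.24 on the log2 scale, and 19 rises and 6 falls exceeded 2-fold. In cluster 3, 313 of 11291 genes (2.77%) were called, 180 higher and 133 lower, with a median size of 0.30. Of the 642 genes in cluster 0, 617 (96.1%) moved the same way in each of the 4 pools, against 27.2% of all genes tested. The test on these same pairs favors such genes. The count rests on the pairing. Without the pool as a block, 19 genes were called in cluster 0 and 15 in cluster 3. It also moved with single pools: 306 genes were called in cluster 0 without pool 3 and 360 without pool 4, the pool of the female WT mouse, and 129, 195 and 169 in cluster 3 without pools 2, 3 and 4.

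MHC class I genes, whose products show cytosolic peptides to CD8 T cells, rose in AppSAA mice. Of 16 genes of this list tested in cluster 0, 12 were called higher (background 3.58%) and none lower, with a median log2 fold change of 0.37 over the list and 0.00 over all genes. H2-D1, a classical heavy chain, was at 557, 690, 562 and 619 CPM in WT and at 1159, 1156, 1163 and 888 CPM in AppSAA mice. Every AppSAA mouse stood above every WT mouse, which was so for 196 genes, or 1.69% of those tested (2.02% had every AppSAA mouse below). Its log2 fold change was 0.87 ± 0.06 (SE; edgeR adjusted p = 1.1e-05). For genes named as the largest changes, lack of overlap was a condition of being named. H2-K1, the other classical heavy chain, was at 356, 414, 413 and 486 CPM in WT and at 689, 618, 813 and 637 CPM in AppSAA mice, again without overlap (0.75 ± 0.07). B2m, the light chain shared by all class I molecules, was at 1428, 1575, 1880 and 1930 CPM in WT and at 1925, 2041, 2611 and 2300 CPM in AppSAA mice. B2m was higher in AppSAA in every pool, although the lowest AppSAA mouse fell just below the highest WT mouse (0.41 ± 0.03, adjusted p = 2.6e-05).

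Non-classical heavy chains of the H2-Q group rose as well, H2-Q6 and H2-Q7 by more than the classical chains. H2-Q7 was at 4.83, 8.57, 9.58 and 11.8 CPM in WT and at 21.6, 20.6, 59.2 and 27.7 CPM in AppSAA mice (log2 fold change 1.84 ± 0.18). H2-Q6 went from 3.98 ± 1.53 to 15.7 ± 6.31 CPM (SD, n = 4) and H2-Q4 from 18.7 ± 0.87 to 33.3 ± 8.50 CPM. All 3 separated the genotypes in cluster 0, which for H2-Q4 was a condition of being named, and the AppSAA mouse of pool 3 was the highest for each. The H2-Q genes and H2-K1 and H2-D1 are near-identical in long stretches, and reads that fit several of them may have been assigned unevenly, so the split among them is uncertain. The peptide transporter subunit Tap1 and the immunoproteasome subunits Psmb8 and Psmb9 were among the 12 called genes.

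**Figure D1:**
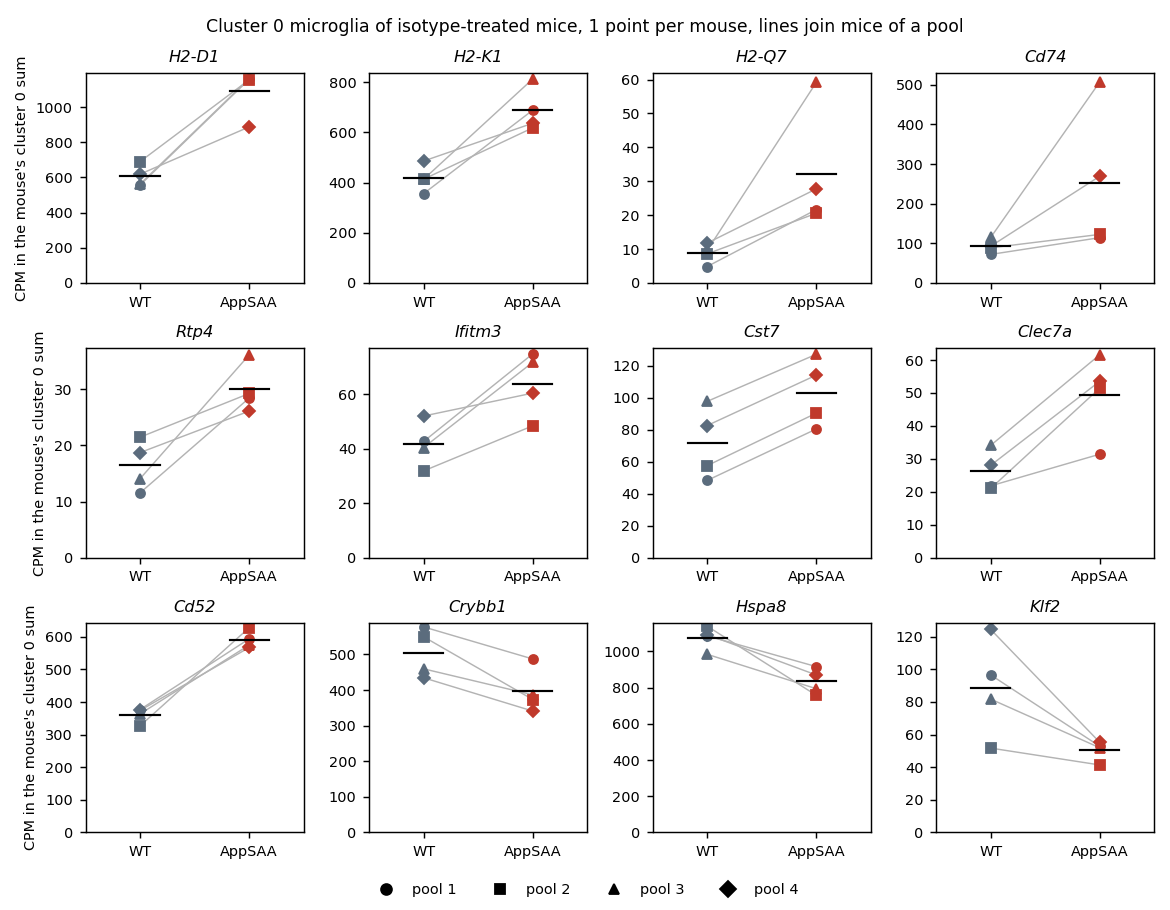
CPM in the cluster 0 sum of each isotype-treated mouse for 12 genes, WT at left and AppSAA at right, with a marker shape for each pool, grey lines joining mice of a pool and black bars at the group mean (n = 4). H2-D1, H2-K1, H2-Q7, Rtp4 and Cd52 separate the genotypes and Hspa8 separates them in the other direction, whereas Cd74 rises mainly in pools 3 and 4.

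The 5 heavy chain genes also share promoter letters. Upstream stretches from RefSeq (GRCm38.p6) are shown because these genes carry a like arrangement, with capitals at each CCAAT or its reverse complement ATTGG.
H2-D1: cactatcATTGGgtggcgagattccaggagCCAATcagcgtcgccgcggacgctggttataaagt
H2-K1: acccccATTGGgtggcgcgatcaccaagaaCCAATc
H2-Q4: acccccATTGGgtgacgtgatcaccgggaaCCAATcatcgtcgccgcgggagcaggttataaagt
H2-Q6: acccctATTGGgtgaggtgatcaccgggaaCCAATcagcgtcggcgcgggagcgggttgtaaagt
H2-Q7: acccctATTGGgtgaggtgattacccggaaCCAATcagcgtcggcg
These lie on chromosome 17, at chr17:35263011-35263075 (plus strand), chr17:34000334-34000369 (minus strand), chr17:35379532-35379596 (plus), chr17:35424765-35424829 (plus) and chr17:35439109-35439154 (plus). The table holds another start for H2-K1, upstream of which (chr17:34000348-34000393) only the ATTGG falls. CCAAT on either strand within 250 bases upstream of a start was found for 11 of the 12 called class I genes. It was also found for 6 of 6 called class II genes and 5 of 5 called heat shock genes, the latter lower in AppSAA. Among all genes with a promoter in the table, as counted here, CCAAT was found for 37.5% of 27025 and 40.7% of 8975 tested in cluster 0. It was found for 4 of 12 called interferon, 5 of 17 called DAM and 1 of 5 called homeostatic genes with a promoter in the table.

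MHC class II genes, whose products show peptides from endosomes to CD4 T cells, were called higher for 8 of 9 genes in cluster 0 (background for higher calls 3.58%). The rise was uneven between mice. Cd74, the invariant chain, was at 71.9, 88.5, 115 and 92.5 CPM in WT and at 114, 122, 507 and 269 CPM in AppSAA mice. H2-Aa, an alpha chain, was at 12.5, 16.3, 36.0 and 28.2 CPM in WT and at 20.6, 18.1, 130 and 72.3 CPM in AppSAA mice. For both genes the AppSAA mice of pools 3 and 4 stood apart and those of pools 1 and 2 lay within or just beside the WT range (log2 fold changes 1.36 ± 0.19 and 1.31 ± 0.17, adjusted p 0.00047 and 0.00031). With DESeq2 3 of the class II genes were called and H2-Aa, H2-Ab1 and H2-Eb1 were not. Of the class II genes, 5 were called without pool 3 or pool 4, 5 after thinning and 0 without the block. Over all genes in cluster 0, 277 were called with DESeq2, 306 without pool 3, 360 without pool 4, 342 after thinning and 19 without the block. H2-Oa, which restrains peptide loading, behaved otherwise: it was at 50.8 to 63.3 CPM in WT and 71.7 to 80.7 CPM in AppSAA mice, with no overlap and little spread (0.47 ± 0.06). Border macrophages also express class II genes; their summed markers, given above, were lower in AppSAA in 4 of 4 pools. Monocytes express class II genes too, and their summed markers were higher in AppSAA in 4 of 4 pools of cluster 0 (ranges above), with none of 5 markers tested called and a median log2 fold change of 0.40. The part of either cell type in the class II rise was not tested.

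Many interferon-stimulated genes were higher in AppSAA mice. Of 35 tested in cluster 0, 19 were called higher (background 3.58%), 16 were not called and none was called lower, and the median log2 fold change was 0.39. Rtp4, a chaperone-like protein induced by type I interferon, was at 11.5, 21.5, 14.1 and 18.7 CPM in WT and at 28.5, 29.3, 36.2 and 26.1 CPM in AppSAA mice (0.88 ± 0.13, adjusted p = 0.00079). Oasl2, of the oligoadenylate synthetase family, went from 4.65 ± 1.33 to 9.22 ± 1.78 CPM (SD, n = 4) and Slfn2, a regulator of immune cell quiescence, from 36.1 ± 8.47 to 57.0 ± 9.01 CPM. These 3 genes separated the genotypes. Ifitm3, an antiviral membrane protein, was at 42.6, 31.8, 40.4 and 52.0 CPM in WT and at 74.8, 48.4, 71.7 and 60.4 CPM in AppSAA mice, higher in each pool but overlapping across pools. Ifi27l2a, a mitochondrial interferon-induced protein, had no overlap, with 25.1 to 51.0 CPM in WT and 64.0 to 78.5 CPM in AppSAA mice. For Ifi27l2a this was a condition of being named.

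Interferon response elements were searched as GAAA, NN and GAAA in a row, on either strand, in the 250 bases upstream. This pattern was found for 6 of the 12 called interferon genes with a promoter in the table (Ifit3, Isg15, Oas1a, Bst2, Slfn5 and Lgals9). It was found for 3 of 12 called class I genes (B2m, H2-T22 and H2-T23) and 1 of 17 called DAM genes (B2m again). None of 6 called class II, 5 called homeostatic and 5 called heat shock genes had it. Each count is among genes with a promoter in the table, against 3.46% of 27025 genes and 3.19% of 8975 tested in cluster 0. Some of these names fall outside the rule for named genes and were chosen after their values were seen. The pattern was not found for H2-D1, H2-K1, H2-Q4, H2-Q6 or H2-Q7. Stretches of 4 genes are printed with the pattern in capitals, B2m from the class I list and Isg15, Ifit3 and Bst2 from the interferon list.
B2m: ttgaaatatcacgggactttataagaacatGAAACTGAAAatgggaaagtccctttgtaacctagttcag
Isg15: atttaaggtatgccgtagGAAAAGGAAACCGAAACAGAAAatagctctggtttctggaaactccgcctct
Ifit3: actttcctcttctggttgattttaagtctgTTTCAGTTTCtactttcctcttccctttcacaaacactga
Bst2: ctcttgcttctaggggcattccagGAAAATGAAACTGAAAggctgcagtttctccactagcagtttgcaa
They are at chr2:122147518-122147587 (plus), chr4:156200845-156200914 (minus), chr19:34583377-34583446 (plus) and chr8:71537557-71537626 (minus), from RefSeq on GRCm38.p6. A match describes the letters and not the binding of a factor.

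DAM genes were higher in cells still classed as homeostatic. Of 39 tested in cluster 0, 23 were called higher (background 3.58%) and none lower, and all 39 had a log2 fold change above 0 (median 0.28). Cst7, an inhibitor of lysosomal cathepsins, was at 48.3, 57.5, 97.8 and 82.6 CPM in WT and at 80.5, 90.4, 127 and 114 CPM in AppSAA mice. The WT mice of pools 3 and 4 matched the AppSAA mice of pools 1 and 2, and the rise was seen within each pool (0.56 ± 0.05, adjusted p = 4e-05). Clec7a, a receptor for beta-glucan, went from 26.2 ± 6.11 to 49.5 ± 12.8 CPM (SD, n = 4), with the AppSAA mouse of pool 1 within the WT range (log2 fold change 0.95 ± 0.08 SE). Cd52, a small surface glycoprotein, separated the genotypes, with 377, 327, 364 and 374 CPM in WT and 594, 628, 575 and 568 CPM in AppSAA mice (0.75 ± 0.05, adjusted p = 2.4e-06). The chemokine Ccl6 had no overlap either, at 139 to 196 CPM in WT and 232 to 274 CPM in AppSAA mice (0.63 ± 0.05). Lpl, Fabp5, Axl, Lgals3bp, Csf1, Igf1 and the cathepsins Ctsb, Ctsl and Ctsz were called higher, with log2 fold changes from 0.17 for Ctsb to 0.68 for Lpl. All 9 calls were lost without the block; the call of Igf1 was also lost with DESeq2, after thinning and without pool 2, 3 or 4, that of Csf1 with DESeq2 and without pool 3, that of Fabp5 without pool 4 and that of Ctsb without pool 3. In cluster 0 the fewest list members called in any alternative that kept the block were 17 for DAM, 10 for interferon, 9 for class I, 6 for homeostatic and 4 for heat shock genes, and without the block 3, 2, 6, 0 and 0 were called. Over all genes in cluster 0, at least 277 were called in each alternative that kept the block, and 19 without it.

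Apoe moved little. It was at 774, 877, 1279 and 1040 CPM in WT and at 760, 968, 1459 and 1408 CPM in AppSAA mice, lower in AppSAA in pool 1 and higher in the other pools (0.22 ± 0.05, adjusted p = 0.026), and the call was lost without pool 3 or pool 4, with all 5 groups in the fit, without the block and with DESeq2. The DAM receptor Trem2 (log2 fold change 0.11 ± 0.03, adjusted p = 0.071) and its adaptor Tyrobp (0.10 ± 0.03, adjusted p = 0.077) were not called. Of the 18 genes of Trem2 signaling tested, 1 was called, a share near the 5.54% of all genes. It was the kinase Syk, which fell from 83.3, 95.8, 112 and 110 CPM to 74.8, 79.9, 89.9 and 86.6 CPM.

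**Figure D2:**
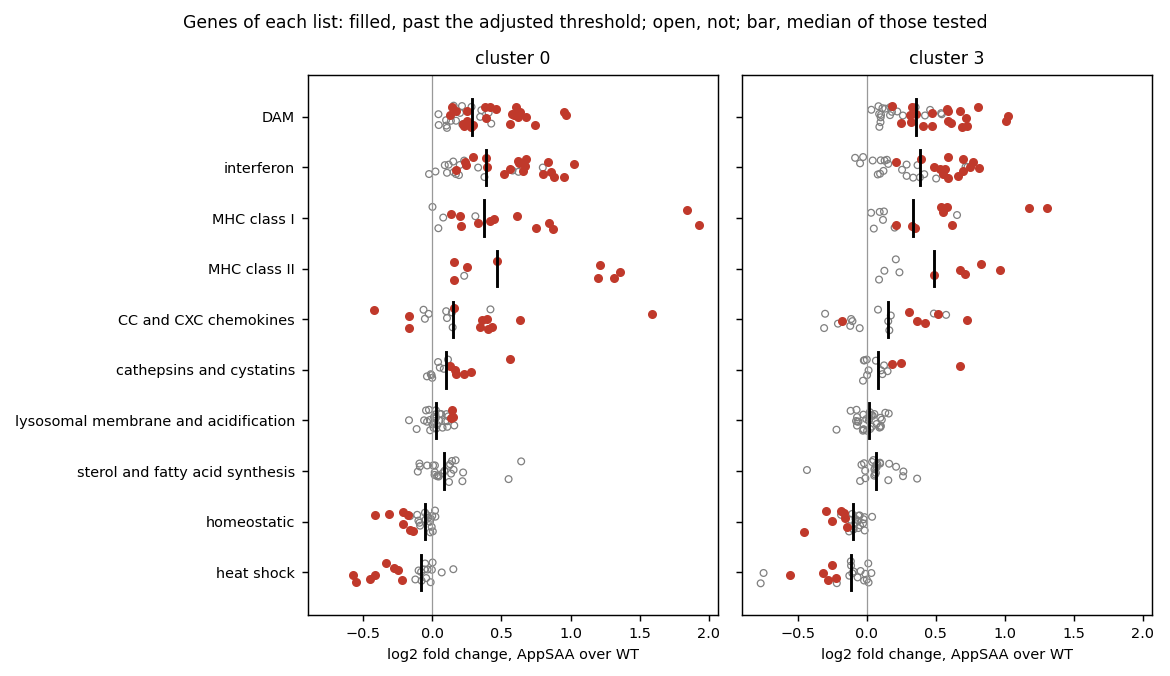
Log2 fold change of AppSAA over WT for each tested gene of 10 lists in cluster 0 (left) and cluster 3 (right); filled points are called, open points are not, and the bar is the median of the genes tested. DAM and MHC genes lie to the right of 0, as do interferon genes except 1 in cluster 0 and 3 in cluster 3, and homeostatic and heat shock genes mostly to the left in both clusters.

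The size of these changes was set beside the level reached in deposited cluster 1 of the AppSAA mice. Among called genes at least 1.5-fold higher in AppSAA cluster 1 than in WT cluster 0, the rise in cluster 0 covered a median of 5.08% of that gap for 23 DAM genes, 29.2% for 10 interferon genes, 67.4% for 6 class I genes and 14.3% for 5 class II genes (10.7 to 56.5%). Cst7 averaged 2817 CPM in cluster 1, so its rise in cluster 0 was 1.15% of the gap. Lpl covered 1.35%, Apoe 1.08%, Igf1 0.766% and Fabp5 0.799%. Among DAM genes the shares were larger for Cd9 (27.0%) and B2m (29.2%). For H2-D1, at 607 ± 62.1 CPM in WT cluster 0, 1092 ± 136 CPM in AppSAA cluster 0 and 1549 CPM on average in AppSAA cluster 1, the share was 51.5%, and for H2-Q6 it was 100.0%. A small share of cells of cluster 1 type among the homeostatic cells would add to each gene in proportion to its gap. Its part in the result was not tested. Because clusters were made from expression, cells with the largest DAM changes may have been placed outside cluster 0. That selection may limit how much of the gap a gene covers within cluster 0, which was not tested either. An average of 98.0% ± 0.823 of AppSAA and 99.3% ± 0.210 of WT cells in cluster 0 (SD, n = 4; p = 0.0286, exact permutation test) also lay in clusters 0 or 2 of the finer deposited clustering. The AppSAA share was lower in 4 of 4 pools. With those cells alone 646 genes were called in cluster 0 (642 with all cells) and 207 in cluster 3 (313 with all cells).

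**Figure D3:**
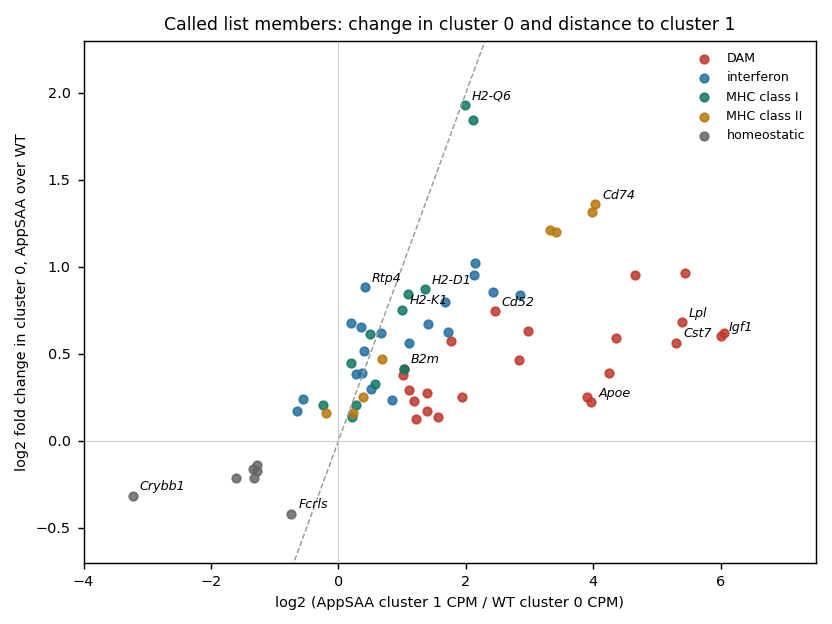
Each point is a called list member in cluster 0; the horizontal axis is the log2 ratio of its mean CPM in AppSAA cluster 1 to that in WT cluster 0, the vertical axis its log2 fold change in cluster 0, and the dashed line marks equality. H2-Q6 lies on the line (share of the gap 100.0%), whereas Cst7, Lpl and Igf1 lie far to its right (0.766 to 1.35%).

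The rise of the DAM list as a sum was present at low, middle and high percentiles of the cells of a mouse. Each cell was thinned to 2000 UMIs, which left out 34 of 11808 cells in cluster 0, and the percentage of UMIs in the 41 DAM list genes was taken per cell. At most 2.75% (WT) and at least 2.90% (AppSAA) was seen for the median cell. The 10th percentile of cells was at 1.85 to 2.05% in WT and 2.00 to 2.20% in AppSAA mice, the median at 2.64% and 2.94% on average, and the 99th percentile at 4.55 to 4.93% and 5.19 to 5.45%. AppSAA was higher than WT in 4 of 4 pools at each of these percentiles, and the 2 genotypes did not overlap at the median and above. Without thinning, the list made up 26012 to 28179 CPM of the WT sums and 30087 to 31400 CPM of the AppSAA sums. Abundant genes weigh most in this percentage, among them Trem2 and Tyrobp (3148 and 3395 CPM in WT), which were not called. Ctsd averaged 7550 CPM in WT and 8060 CPM in AppSAA cluster 0, but Cst7 71.6 and 103 CPM and Lpl 20.2 and 31.3 CPM. The percentiles therefore do not show in what share of cells genes such as Cst7 or Lpl rose. For the homeostatic list the median was 9.35 to 11.2% in WT and 9.25 to 10.7% in AppSAA mice, lower in AppSAA in 4 of 4 pools.

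**Figure D4:**
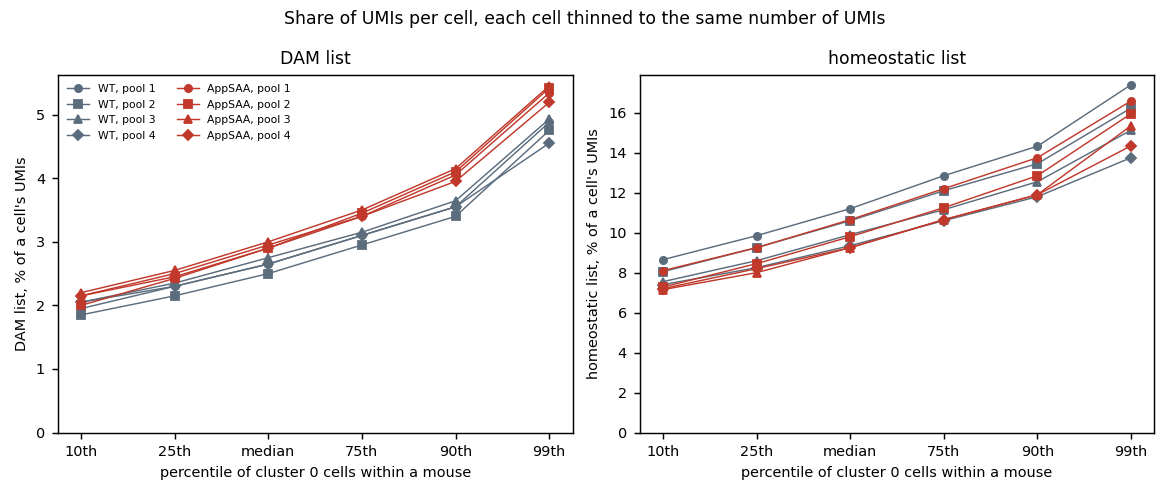
Percentiles of cluster 0 cells within each mouse for the percentage of a cell's UMIs in the DAM list (left) and the homeostatic list (right), cells thinned to 2000 UMIs, WT in grey and AppSAA in red. For the DAM list the AppSAA curves overlap the WT curves at the 10th percentile and lie above them from the median up, with medians of at least 2.90% against at most 2.75%, and the curves overlap for the homeostatic list.

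Some homeostatic genes were lower in AppSAA mice, and most were not called. Cells that had lost much of this profile may have been placed in other clusters. The falls seen here may be kept small by that choice of cells, which was not tested. In cluster 0, 7 of 25 were called lower (background for lower calls 1.96%) and none higher, with a median log2 fold change of -0.05, and the called genes were Siglech, Gpr34, Fcrls, Crybb1, Cd164, Fscn1 and Bin1. Crybb1, a beta-crystallin, was at 578, 550, 460 and 435 CPM in WT and at 487, 373, 387 and 341 CPM in AppSAA mice (-0.32 ± 0.04, adjusted p = 0.00036). Bin1, a membrane-bending protein near an Alzheimer risk locus, was at 872 to 958 CPM in WT and 773 to 871 CPM in AppSAA mice, without overlap (-0.16 ± 0.03). Fcrls, an Fc receptor-like protein, fell in 2 mice: it was at 2005, 1943, 1753 and 1855 CPM in WT and at 1931, 1071, 1623 and 1074 CPM in AppSAA mice, and its call was lost without pool 4, without the block and with DESeq2. The named members P2ry12 (-0.11 ± 0.04, adjusted p = 0.15), Cx3cr1 (-0.09 ± 0.03, adjusted p = 0.13) and Tmem119 (-0.02 ± 0.04, adjusted p = 0.88) were not called. Of the transcription factors, Maf fell from 804, 973, 1004 and 1056 CPM to 677, 726, 844 and 887 CPM, lower in every pool (-0.26 ± 0.03, adjusted p = 0.0003), and Hif1a, the oxygen-sensing factor, rose from 108 to 115 CPM to 123 to 136 CPM.

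Several cytosolic chaperones were lower in AppSAA mice. Of 21 heat shock genes tested in cluster 0, 8 were called lower (background 1.96%), 13 were not called and none was called higher. Of 24 early-response genes tested there, 3 were called lower (Fos, Jun and Klf2) and 2 higher (Junb and Ier2, background 3.58%). Clusters 0 and 3 differ in these genes, so a result within cluster 0 depends on how cells were divided between them. With both clusters merged, the log2 fold changes of Fos and Jun were 0.33 and 0.18. Hspa8, the constitutive HSP70, was at 1086, 1140, 984 and 1093 CPM in WT and at 916, 758, 794 and 870 CPM in AppSAA mice, without overlap (-0.34 ± 0.04, adjusted p = 0.00033). Hsp90ab1 went from 1005 ± 114 to 822 ± 26.6 CPM (SD, n = 4). Dnaja1, an HSP40 cochaperone, was at 202, 383, 261 and 218 CPM in WT and at 172, 229, 201 and 164 CPM in AppSAA mice, lower in each pool and highest in pool 2 in both genotypes. In mice given ATV:4D9, 1 of 20 heat shock genes tested in cluster 0 was called lower (Pdia6, named after its value was seen; background 0.626%) and none higher, with a median log2 fold change of 0.01.

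Inflammatory mediators moved in part. Of 19 chemokine and receptor genes, 8 were called higher and 3 lower (background 3.58% and 1.96%). Ccl3 was at 300, 209, 328 and 384 CPM in WT and at 336, 272, 490 and 523 CPM in AppSAA mice, higher in each pool (0.43 ± 0.05), and Ccl4 followed it (0.35 ± 0.04). Pdcd1, the checkpoint receptor PD-1, rose from 5.89, 4.05, 3.45 and 5.03 CPM to 10.0, 15.7, 11.2 and 10.2 CPM (1.38 ± 0.16), and Lag3, another checkpoint receptor, from 298 to 372 CPM to 373 to 437 CPM. Fgl2, which encodes a prothrombinase, went from 10.8 ± 2.08 to 22.3 ± 5.64 CPM, and Chst2, a sulfotransferase, from 8.25 ± 1.03 to 15.4 ± 1.66 CPM. These 4 genes separated the genotypes (1.69% of all genes tested had every AppSAA mouse above). For Fgl2 and Chst2 this was a condition of being named. None of 24 sterol and fatty acid synthesis genes was called in cluster 0 by edgeR (median 0.08; over all genes 2101 had an unadjusted p under 0.05), and 3 of 31 lysosomal membrane and acidification genes were (Cd63, Grn and Gusb, 0.14 to 0.15; background 5.54%). Of 14 alternatives, the call was lost in 8 for Cd63, 5 for Grn and 4 for Gusb, each time including the fits without the block and without pool 4. The predicted genes Gm43305 and Gm42031 were the strongest falls among named genes, at 19.1 to 35.5 CPM in WT against 4.94 to 14.5 CPM in AppSAA mice and at 6.22 to 18.3 CPM against 0.515 to 3.82 CPM. In ATV:4D9 mice their log2 fold changes were -0.37 and -0.19, not called.

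In cluster 3, whose sums come from the same mice, 20 of 39 DAM genes, 14 of 35 interferon genes, 9 of 16 class I genes and 5 of 9 class II genes were called higher and none lower, against 1.59% of all genes, and 7 of 25 homeostatic genes and 5 of 21 heat shock genes were called lower, against 1.18%. With DESeq2 these counts were 7 for DAM, 1 for interferon, 4 for class I and 1 for class II genes, and with all 5 groups in the fit 2 for homeostatic and 1 for heat shock genes. Without the block they were 4, 1, 3, 0, 0 and 0, in the order DAM, interferon, class I, class II, homeostatic and heat shock. Over all genes in cluster 3, 142 were called with DESeq2, 191 with all 5 groups in the fit and 15 without the block. H2-D1 was at 654, 812, 711 and 787 CPM in WT and at 1179, 1222, 1171 and 921 CPM in AppSAA mice (0.62 ± 0.07). Cd52 was at 373, 364, 387 and 405 CPM in WT and at 612, 627, 577 and 605 CPM in AppSAA mice (0.69 ± 0.04). In this cluster 1.33% of genes had every AppSAA mouse above every WT mouse and 2.11% every one below. Lpl, at 24.3, 25.6, 29.8 and 33.9 CPM in WT and at 42.3, 44.3, 51.8 and 56.9 CPM in AppSAA mice, was among the former (0.81 ± 0.05). Of 13 cytokine genes tested in cluster 3, Il1a, Il1b, Tnf, Csf1 and Igf1 were called higher, and the genotype effect on none of these 5 differed from that in cluster 0 by the edgeR test of the difference (adjusted p from 0.11 for Il1a to 0.98 for Igf1).

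Whether the genotype effect itself differed between the clusters was tested within mice. It did for 9 of 11784 genes (0.0764%; 0.00849% higher and 0.0679% lower in cluster 3), and 592 had an unadjusted p under 0.05. The effect was smaller in cluster 3 for 7 MHC genes. For H2-D1 the difference, cluster 3 minus cluster 0, was -0.25 ± 0.04 on the log2 scale (SE; edgeR adjusted p = 0.0014), and H2-K1, H2-Q7, H2-Aa, H2-Ab1, H2-Eb1 and Cd74 had differences from -0.71 for H2-Q7 to -0.20 for H2-K1. H2-K1 in WT mice was at 435, 508, 484 and 585 CPM in cluster 3, higher in every pool than in cluster 0. Gm43305 fell more in cluster 3 (-0.53). Klf2, a transcription factor that keeps immune cells quiescent, fell less there: it was at 96.6, 51.7, 81.8 and 125 CPM in WT and at 52.8, 41.4, 51.9 and 55.2 CPM in AppSAA cluster 0, but at 1378, 841, 1026 and 989 CPM and at 1137, 663, 955 and 814 CPM in cluster 3 (difference 0.55, adjusted p = 0.018). With every cell thinned to 2000 UMIs none of these differences was called by edgeR (495 genes with an unadjusted p under 0.05). Klf2 is an early-response gene and was far higher in cluster 3, so its difference also depends on how cells were divided between the clusters.

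The mice given ATV:4D9 offer values from animals that the isotype comparison did not use. Their homeostatic sums were small, with 37 to 195 cells per mouse in cluster 0, of which 78.4 to 88.1% lay in finer clusters 0 or 2 (97.1% or more in isotype mice; in cluster 3, 60.3 to 75.9% against 93.7% or more), and 209 of 8305 genes (2.52%) were called between AppSAA and WT (1.89% higher, 0.626% lower), or 32 without the pool as a block and 80 without pool 4. Of the 415 genes higher in AppSAA isotype mice, 386 could be tested, 315 (81.6%) were also higher under ATV:4D9 and 133 were called so, while 3 were called lower; 49.3% of all genes tested there were higher. Of the 227 lower genes, 210 could be tested, 145 (69.0%) were also lower and 15 were called, against 50.7% of all genes. H2-D1 was at 736, 688, 545 and 579 CPM in WT and at 1066, 1107, 852 and 1021 CPM in AppSAA mice (0.73 ± 0.07, adjusted p = 8.5e-11). The groups did not overlap, as for 1.67% of genes there (2.69% below). Cst7 was at 99.3, 97.0, 147 and 108 CPM in WT and at 169, 178, 267 and 280 CPM in AppSAA mice (1.07 ± 0.11). Cd74 was at 154 to 206 CPM in WT and 345 to 473 CPM in AppSAA mice, whereas H2-Aa was at 15.3 to 31.9 CPM and 14.7 to 27.7 CPM (0.07 ± 0.26). Of the interferon list, 16 of 25 were called higher, with a median of 0.93. Of the DAM list, 9 of 31 were called higher and 9 had a log2 fold change below 0 (median 0.23), and 6 of 14 class I and 2 of 8 class II genes were called higher. In cluster 3 of these mice, with 68 to 268 cells each, 157 of 9369 genes (1.68%) were called, 1.34% higher and 0.331% lower, and 1.39% of genes had every AppSAA mouse above and 2.72% below WT; 31 were called without the block, and 67, 85 and 40 without pools 1, 2 and 4. Of the 180 genes higher in isotype cluster 3, 171 could be tested there, 132 (77.2%) were also higher and 52 were called so, against 49.3% of all genes higher there. Of the 133 lower genes, 128 could be tested, 91 (71.1%) were also lower and 9 were called, against 50.7% of all genes. Whether the genotype effect differed between the antibodies was not tested.

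Some genes differed in steps between AppSAA mice, and their values are given because a mean hides them; they were chosen after their values were seen. Tpm3-rs7, a tropomyosin-related gene on chromosome 14, had a log2 fold change of 3.72 ± 0.26 in cluster 0: it was at 4.25 CPM in the AppSAA mouse of pool 1 and at 115, 135 and 125 CPM in those of pools 2, 3 and 4, against 4.83 to 10.7 CPM in WT. Its reads may be shared with other tropomyosin genes, so its level is uncertain. AppSAA mice given ATV:4D9 were also lowest in pool 1, with 14.7, 121, 139 and 106 CPM, and those given 4D9 had 268, 121, 129 and 127 CPM. Tubb2b, a tubulin on chromosome 13, was at 2.47 CPM in the AppSAA isotype mouse of pool 2 and at 42.7 to 53.8 CPM in the other 3, and was not called (adjusted p = 0.63). The AppSAA mouse given ATV:4D9 in that pool was at 2.10 CPM, and the one given 4D9 at 40.8 CPM. Rnf121, on chromosome 7, was at 59.2 and 69.8 CPM in AppSAA mice of pools 2 and 4 and at 22.2 to 24.6 CPM in the other 6 isotype mice. Under ATV:4D9 it was at 14.7, 46.9, 20.3 and 40.2 CPM in AppSAA mice, again higher in pools 2 and 4, whereas those given 4D9 were at 29.2, 21.3, 25.7 and 20.4 CPM, without that pattern. Whether the mice differed in genetic background beyond the AppSAA alleles was not tested, and any such difference between the genotypes cannot be told apart from the AppSAA effect.

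Between Pdlim4 and Slc36a1 on chromosome 11 (chr11:54054928-55236330 in mm10), 6 of 11 tested genes were called in cluster 0. The ends of this stretch were set by called genes after their values were seen, so that share is a description and is not comparable with the share of all genes. Rapgef6 was at 111, 127, 153 and 158 CPM in WT and at 26.5, 128, 88.4 and 87.8 CPM in AppSAA mice, lowest in pool 1 and within the WT range in pool 2. Slc36a1, a lysosomal amino acid transporter, was at 58.3, 69.7, 83.5 and 83.7 CPM and at 16.1, 57.4, 49.4 and 46.4 CPM. Hint1 and Lyrm7, in the same stretch, were called higher. On chromosome 3, Fcrl1 and its neighbor Fcrls were both lowest in the AppSAA mice of pools 2 and 4, with Fcrl1 at 12.9 and 18.1 CPM there and 32.1 to 40.2 CPM in the other 6. The App gene itself was at 141, 141, 146 and 141 CPM in WT and at 148, 138, 151 and 143 CPM in AppSAA mice, and as the knock-in keeps the gene's own promoter its level does not check the label.

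**Figure D5:**
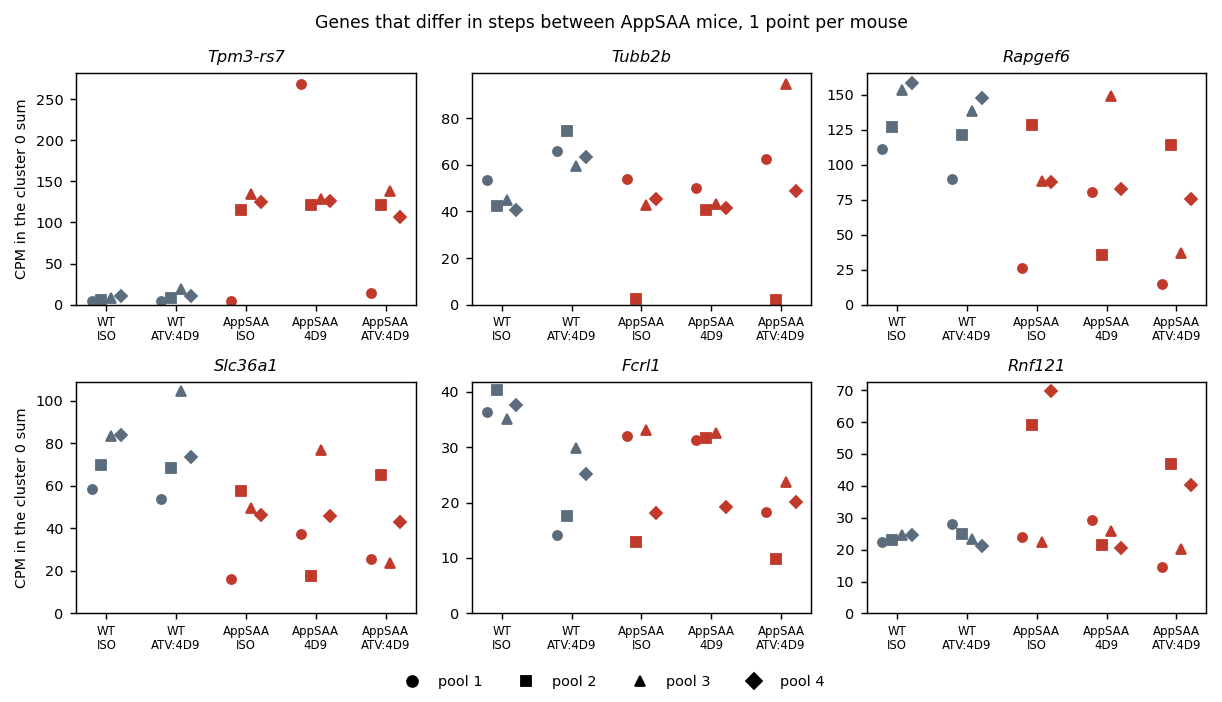
CPM in the cluster 0 sum of each mouse for 6 genes, WT in grey and AppSAA in red, by antibody (ISO, 4D9, ATV:4D9) with a marker shape for each pool. Tpm3-rs7 is low in AppSAA mice of pool 1 given ISO or ATV:4D9 (4.25 and 14.7 CPM) and Tubb2b in those of pool 2 (2.47 and 2.10 CPM), while Rnf121 is high in AppSAA mice of pools 2 and 4 given ISO (59.2 and 69.8 CPM) or ATV:4D9 (46.9 and 40.2 CPM).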

How the data were processed

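Per the labels, the study's methods and the file headers, the authors sorted microglia, tagged each mouse with CellPlex oligos, captured 4 pools with 10x 3' chemistry, aligned reads to mm10 with Cell Ranger 6.1.1 and clustered with Seurat. They deposited unnormalized UMI counts for 19737 genes and an annotation with each cell's mouse, pool, clusters, UMI total and mitochondrial percent. Cell filters and doublet removal are not given in the sources used here, and no doublet caller was run. Per-cell counts matched the deposited totals; 34 barcode sequences occurred in more than 1 pool (68 cells of the 20015), and these were kept.

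Counts were summed per mouse and cluster and analysed in R 4.3.3 with edgeR 4.0.16, using low-count filtering by filterByExpr, TMM scaling and the quasi-likelihood test (pool as block, Benjamini-Hochberg over all genes tested, called at 0.05). The difference between clusters was fitted with each mouse as a block. SE is the log2 fold change divided by the square root of F. The labels put 1 mouse of each group in each pool, and deviations of same-pool mice correlated at 0.354 to 0.507 in cluster 0 and 0.318 to 0.481 in cluster 3, so the pool pairs the mice. In data simulated for cluster 0 (11578 genes), 94% of 2-fold and 82% of 1.5-fold changes were called, and 5.88% of calls were genes left unchanged. The simulated counts held no pool differences, took their spread from the same model, and included no change under 1.5-fold. They therefore test neither the dependence on the block nor the smaller changes that make up most calls.

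The cells and the 34 gene lists (566 of 570 symbols in the matrix) were chosen with earlier results of these data known. Named genes were the largest called changes without overlap and a mean of at least 10 CPM (8 a direction in cluster 0, 5 in cluster 3), the 4 called genes of lowest p in each list or, where none was called, its most abundant gene, 10 fixed genes, and up to 5 differences between clusters in each direction; genes named beyond this rule were chosen after their values were seen, and not every gene the rule names is reported here. Positions are from GENCODE M21. No deposited comparison columns were used. The same tests were repeated in mice given ATV:4D9. Alternatives were DESeq2 1.42.0, limma-voom 3.58.1, RLE scaling, no filter, no block, all 5 groups in a fit, other cell sets, thinning and each pool left out.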

Additional observations from a re-analysis of the deposited data

Results flagged for a closer look

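Among called named genes, 300 groups of 4 mice were looked at for a mouse far from the other 3 (gap to the nearest mouse over the group's range above Dixon's critical value), and 14 were found; chance gives about 1 in 20 groups. In AppSAA cluster 0, H2-D1 was lowest in pool 4 (888 CPM, next 1156 CPM), H2-Q6 highest in pool 3 (25.1 CPM), Bin1 highest in pool 1 (871 CPM), Gm43305 highest in pool 4 (14.5 CPM) and Rgs7bp lowest in pool 2 (3.77 CPM). In WT cluster 0, pool 2 was lowest for Ctsb (1698 CPM) and Fos (274 CPM), and pool 3 for Junb (784 CPM). In AppSAA cluster 3, H2-D1 was again lowest in pool 4 (921 CPM), Hes1 lowest in pool 2 (13.3 CPM), Hspa8 lowest in pool 2 (999.97 CPM) and Junb highest in pool 1 (4727 CPM). In WT cluster 3, Junb was lowest in pool 3 (3486 CPM) and Hes1 highest in pool 4 (29.8 CPM).

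Genes whose genotype effect differed between clusters by the test of the difference itself (log2, cluster 3 minus cluster 0) were H2-Q7 (-0.71), H2-Aa (-0.65), H2-Eb1 (-0.54), Gm43305 (-0.53), H2-Ab1 (-0.41), Cd74 (-0.41), H2-D1 (-0.25), H2-K1 (-0.20) and Klf2 (0.55).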

How the results depend on the processing

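Without the pool as a block, 19 genes were called in cluster 0, 15 in cluster 3, and 32 and 31 in these clusters under ATV:4D9. In cluster 0, DESeq2 called 277 genes, thinned cells 342 and no filter 1011; leaving out a pool gave 306 to 654. In cluster 3, DESeq2 called 142, all 5 groups in the fit 191, the finer clusters 207, thinned cells 124, no filter 728 and merged clusters 892, and leaving out a pool 129 to 289 (129 without pool 2, 195 without pool 3, 169 without pool 4). The difference between clusters was called for 0 genes after thinning, 35 without a filter and 3 to 17 with a pool left out (3 without pool 1 or pool 3, 17 without pool 2). Under ATV:4D9, leaving out a pool gave 80 to 196 genes in cluster 0 and 40 to 132 in cluster 3. The cause was not tested, beyond thinned cells holding fewer UMIs and fits without a pool holding fewer mice. Of 84 named genes called in cluster 0, 15 were called under all 14 alternatives (Ccl6, Cd52, Chst2, Clec7a, Fgl2, Gm42031, Gm43305, H2-D1, H2-K1, H2-Q4, H2-Q6, H2-Q7, Oasl2, Pdcd1 and Rtp4) and 49 under all but the fit without the block; in cluster 3 these were 4 (Ccl6, Cd52, H2-D1 and H2-K1) and 13 of 68. The log2 fold changes of Fos (-0.19) and Jun (-0.14), both called lower in cluster 0, turned positive (0.33 and 0.18) when clusters 0 and 3 were merged. A merged sum also holds the mix of the clusters. Clusters 0 and 3 held 57.2 to 63.5% and 32.7 to 38.9% of a WT mouse's cells, but 28.1 to 32.5% and 21.8 to 29.4% of an AppSAA mouse's. In WT mice Fos averaged 323 CPM in cluster 0 and 4165 CPM in cluster 3. The part of this mix in the sign change was not tested. The difference in UMIs per cell turned negative with means in place of medians (-23.9 in cluster 0, -108 in cluster 3). Other log2 values changed sign: App in cluster 3 (0.0025 thinned, 0.028 merged, and -0.019 to 0.0085 with a pool left out), Ccr2 in cluster 0 (-0.028 with DESeq2, -0.16 to 0.17 with a pool left out) and, with a pool left out, Acly (-0.0017 to 0.10), Cnp (-0.050 to 0.027), Tmem119 (-0.070 to 0.022) and Tmem52 (-0.24 to 0.074) in cluster 0 and Dnajb1 (-0.21 to 0.0032) and Slc1a3 (-0.081 to 0.0011) in cluster 3.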
